A study of Mus musculus with 14 samples.

Results

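Integrins are the receptors by which heart cells hold on to the extracellular matrix, and focal adhesion proteins tie them to the actin cytoskeleton. The genes described here are 38 in number, taken by name from the 49315 genes of the count table: 21 integrin subunits, the integrin-binding protein melusin, 15 adaptors of focal adhesions and costameres, and dystroglycan. The 38 symbols stand on 39 lines of the table, because Itgam is listed under 2 gene identifiers, and the second of these held 0 to 4 reads per library and could not be tested. All 38 symbols passed the filter on low counts, 7 of them at a mean under 3 CPM, the reads of a gene scaled to the size of its library.

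RNA was taken from the left ventricle (LV) of male mice 5 weeks after Sham or TAC surgery, which was done at an age of 10 to 12 weeks. TAC, transverse aortic constriction, narrows the aorta and so raises the pressure against which the LV works, and Sham surgery leaves the aorta open. WT mice carry the normal Hcn4 gene, and HCN4F mice carry a knock-in in which a tyrosine of the HCN4 pacemaker channel is replaced by phenylalanine, a gain-of-function change that is not limited to a cell type. Whether HCN4F mice carried it on 1 or 2 alleles is not given in the sources used here. The analysis covered 4 WT-Sham, 2 WT-TAC (replicates 2 and 3), 4 HCN4F-Sham and 4 HCN4F-TAC libraries, described by the study as biological replicates.

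An integrin is a pair of an alpha and a beta subunit. The alpha subunit largely sets which ligand is bound: laminin for alpha3, alpha6 and alpha7, collagen for alpha1, alpha10 and alpha11, and the RGD motif of fibronectin and vitronectin for alpha5, alpha8 and alphaV. In the adult cardiomyocyte alpha7 with beta1 is the main laminin receptor and sits in the costamere, the rib-like contact between the Z-disc and the cell membrane. Talins and kindlins switch integrins on from inside the cell, vinculin strengthens the talin to actin link under force, and the complex of ILK, PINCH (Lims1, Lims2) and parvin joins the beta tail to actin.

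The stretches before the start site of 4 of the genes that rose after TAC in HCN4F hearts are shown here, as the DNA next to which these transcripts begin. They are RefSeq sequences on GRCm38.p6, 250 bases directly upstream of the annotated start, written 5′ to 3′ on the gene's strand. Capitals mark letters that match a CArG box (the binding motif of serum response factor), CATTCC (the TEAD motif) or TGANTCA (the AP-1 motif), searched on both strands. Itga5 lies at chr15:103366792-103367041 (minus strand), Itgav at chr2:83724147-83724396 (plus), Itgb1 at chr8:128685404-128685653 (plus) and Vcl at chr14:20929148-20929397 (plus).
Itga5: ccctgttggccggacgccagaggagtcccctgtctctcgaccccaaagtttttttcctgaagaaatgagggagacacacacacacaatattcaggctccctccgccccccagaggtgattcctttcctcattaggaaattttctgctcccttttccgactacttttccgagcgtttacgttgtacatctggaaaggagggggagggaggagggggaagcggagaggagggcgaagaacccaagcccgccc
Itgav: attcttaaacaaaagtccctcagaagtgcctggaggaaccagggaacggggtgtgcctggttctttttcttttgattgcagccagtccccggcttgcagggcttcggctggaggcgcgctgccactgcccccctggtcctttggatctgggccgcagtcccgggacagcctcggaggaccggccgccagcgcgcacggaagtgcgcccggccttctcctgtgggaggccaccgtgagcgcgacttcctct
Itgb1: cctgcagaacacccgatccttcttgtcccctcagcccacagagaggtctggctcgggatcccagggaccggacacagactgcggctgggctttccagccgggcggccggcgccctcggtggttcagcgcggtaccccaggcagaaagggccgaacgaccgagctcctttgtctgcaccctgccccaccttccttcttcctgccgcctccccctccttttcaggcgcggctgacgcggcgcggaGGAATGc
Vcl: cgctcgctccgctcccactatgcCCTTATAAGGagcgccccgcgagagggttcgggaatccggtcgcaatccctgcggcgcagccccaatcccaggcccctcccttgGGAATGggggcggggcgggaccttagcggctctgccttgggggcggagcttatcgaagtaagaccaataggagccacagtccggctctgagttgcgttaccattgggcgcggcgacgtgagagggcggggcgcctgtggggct

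Of the 38 genes, 27 had at least 1 such stretch in the RefSeq table. Among them were 10 of the 11 that rose after TAC in HCN4F hearts at an adjusted p under 0.05 in edgeR. Of these 11, 4 did so in WT hearts too. Vcl held a CArG box 227 to 218 bases before its start and a TEAD motif 143 to 138 bases before it, and Itgb1 held a TEAD motif 7 to 2 bases before its start. Itga5 and Itgav held none of the 3. Genes were counted where any of their promoters held a motif. A CArG box stood in 1.62% of all genes of the table (1.47% of promoters). Among the 38 it was also found in Fermt2 and Itgb6, neither of which is among the 11 that rose. CATTCC stood in 14.4% of genes (12.6% of promoters) and in Itgb1, Vcl, Flna and Itga10. TGANTCA stood in 7.82% of genes (6.75% of promoters) and in Zyx and Itgax. GGGCGG, the GC box, is left in lower case in the sequences. It stood in 35.4% of genes (32.7% of promoters), in 6 of the 10 genes that rose and in 9 of the other 17. These matches describe letters in a short window and not binding.

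Depth was 22309914 to 35210939 counts per library (median 27676181), and 3 reads, the limit that a count of 0 allows, came to 0.0852 to 0.134 CPM. Hcn4, whose knock-in leaves the transcript in place, averaged 9.45 CPM in WT-Sham, 12.7 in WT-TAC, 9.07 in HCN4F-Sham and 6.72 in HCN4F-TAC, so its count cannot check the genotype labels. HCN4F-TAC replicate 2 stood apart in some marker sums, with the lowest ventricular cardiomyocyte sum and the highest activated fibroblast, platelet and erythroid ones. Its fibroblast, leukocyte and atrial sums were highest by little. They were 2220, 329 and 64.1 CPM, against 2145, 319 and 61.8 CPM in the next library of each. TAC counts in HCN4F that change by over 1.5 times without HCN4F-TAC replicate 2 are given with and without this library. The 8 ventricular cardiomyocyte markers were present in every group and summed to 45224 to 71755 CPM per library. The 6 atrial markers summed to 34.3 to 64.1 CPM. Of them, Sln was at 0 in all WT-Sham libraries and Bmp10 in all WT-TAC and HCN4F-Sham libraries, while in HCN4F-TAC replicate 2 Sln was 3.79 CPM, Myl7 9.91 CPM and Myl4 17.4 CPM. Sums of the 6 activated fibroblast markers were 41 to 46.9 CPM in WT-Sham, 65.2 to 66.7 in WT-TAC, 38.8 to 52.4 in HCN4F-Sham and 86.2 to 341 in HCN4F-TAC. In bulk tissue, fewer cells of a type and less RNA per cell cannot be told apart.

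In the LV the adhesion transcripts were dominated by a few genes. Scaled to the exon length of each gene (CPM per kilobase of exon, averaged over the 14 libraries), Itgb1 was highest at 85.8, followed by Dag1 at 65.6, the melusin gene Itgb1bp2 at 59.4, Itgb5 at 34, Fermt2 at 29.7, Parvb at 26, Lims2 at 24, Tln1 at 22.3 and Itga7 at 21.8. Itga10, at 0.145, and Itgb8, at 0.118, were the lowest after the second Itgam identifier. Among the alpha subunits of WT-Sham hearts Itga7 made up 38.8% of the summed CPM per kilobase (37.7% to 40.2% over the libraries). Itga5 made up 16.8%, Itga9 15.4% and Itga6 14%. Among the beta subunits Itgb1 made up 67.8% and Itgb5 28%. These ranks and shares depend on the length used, the union of all annotated exons, which was 18.599 kilobases for Itga1 and 4.933 for Itga5.

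After TAC the make-up of the alpha subunits shifted toward Itga5 and Itga9. The share of Itga7 was 31.4% in WT-TAC (29.5% and 33.3%) and 26.2% in HCN4F-TAC (24.5% to 29.9%), against 38.9% in HCN4F-Sham (36.1% to 44%). Itga5 went from 16.8% to 22.2% in WT and from 18% to 24.9% in HCN4F, and Itga9 from 15.4% to 20% and from 13.4% to 22%. The shares of these 3 genes did not overlap between Sham and TAC in either genotype, and they are given as a description without a test. Without HCN4F-TAC replicate 2 the HCN4F-TAC means were 26.6% for Itga7, 25.6% for Itga5 and 20.9% for Itga9. The summed level of the alpha subunits was higher after TAC, 51.8 to 58.3 CPM per kilobase in WT-Sham against 73 and 75.3 in WT-TAC, and 57.3 to 62.4 in HCN4F-Sham against 76 to 80.3 in HCN4F-TAC. Itga7 itself averaged 21.4 and 23.2 CPM per kilobase in WT-Sham and WT-TAC, and 23.1 and 20.2 in HCN4F-Sham and HCN4F-TAC. The summed ventricular cardiomyocyte markers were lower after TAC, at 68308 to 71755 CPM in WT-Sham against 62357 to 62393 in WT-TAC. In HCN4F they went from 61100 to 67430 CPM after Sham to 45224 to 57512 CPM after TAC. The part of these cells in the shares was not tested. Itgb1 kept 65.4% to 72.2% of the beta subunits in every library.

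**Figure D1:**
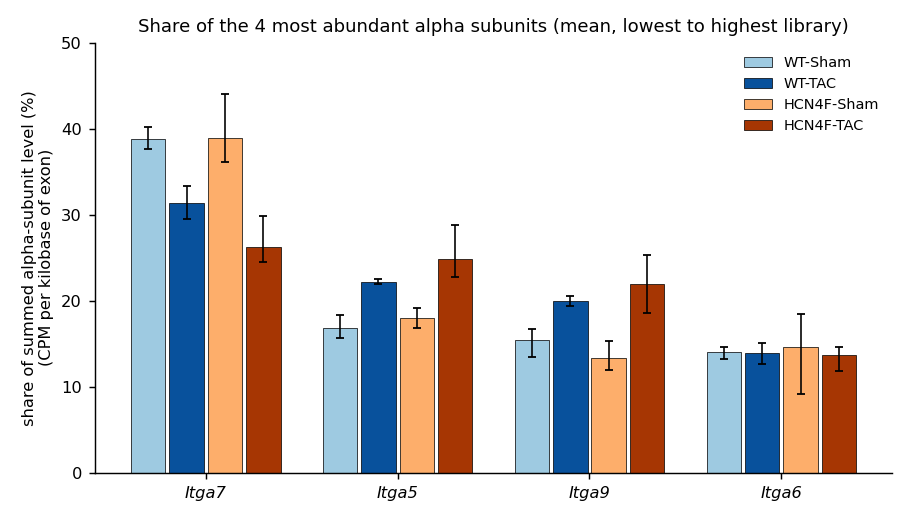
Share of Itga7, Itga5, Itga9 and Itga6 in the summed level of all alpha subunits (percent of CPM per kilobase of exon, vertical axis), with bars at the mean of each group and whiskers from the lowest to the highest library. The Itga7 bars are lower in both TAC groups (31.4% and 26.2%) than in the Sham groups (38.8% and 38.9%), those of Itga5 and Itga9 are higher, and those of Itga6 lie at 13.7% to 14.6% in all groups.

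TAC was compared with Sham within each genotype to ask which adhesion genes respond to pressure overload. In WT hearts 4 of the 38 genes passed the test and all were higher after TAC: Itga5, Itgav, Itga9 and Vcl. Passed means an adjusted p under 0.05 (edgeR, quasi-likelihood, corrected after Benjamini and Hochberg over the 15292 tested genes), which 4.54% of tested genes reached in either direction, 2.92% as higher and 1.62% as lower. None of the 38 passed as lower. Calls, among them Itgav and Vcl, were lost when either WT-TAC library was left out. Such a fit keeps 1 WT-TAC library, so its spread comes from the other groups. DESeq2 on all groups gave 8 higher and 0 lower, and 14 higher and 1 lower (Itgb1bp2) had an unadjusted p under 0.05, which 22.0% of tested genes had. None of the 38 reached a log2 fold change beyond 1 as well, which 0.706% of tested genes did. The median log2 fold change over the 38 was 0.15, against -0.02 over all tested genes, and 27 of the 38 lay above 0, where 46.5% of tested genes did. The WT-TAC and WT-Sham libraries did not overlap for 18 of the 38, with TAC above in 17 and below in 1, and they did not overlap for 39.2% of tested genes.

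In HCN4F hearts 11 of the 38 genes passed, again all as higher, where 13.6% of tested genes passed in either direction, 7.20% as higher and 6.41% as lower. The 4 genes that passed in WT were all among the 11. The other 7 were Itga11, Itgb1, Itgb3, Itgb5, Tln1, Parvb and Zyx. None passed as lower in edgeR, DESeq2 on all groups gave the count of 11 higher and 0 lower, and 12 higher and 1 lower (Lims2) had an unadjusted p under 0.05, which 28.3% of tested genes had. Itga9 was the only one of the 38 with a log2 fold change above 1, which together with the adjusted p held for 2.75% of tested genes. The median log2 fold change was 0.16 against -0.01 over all tested genes, and 31 of the 38 lay above 0, where 48.9% of tested genes did. Libraries did not overlap for 9 of the 38, all with TAC above, and for 15.1% of tested genes. Without HCN4F-TAC replicate 2 the count was 7, and Itga11, Itgb1, Itgb3 and Vcl did not pass. With edgeR on the compared groups alone the count was 5 in HCN4F, where Itgb1, Itgb3, Itgb5, Vcl, Parvb and Zyx were lost, and 10 in WT, so the order of the genotypes turned around. Passing in HCN4F and not in WT does not by itself show a difference between the genotypes, and the test of that difference follows under the interaction.

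**Figure D2:**
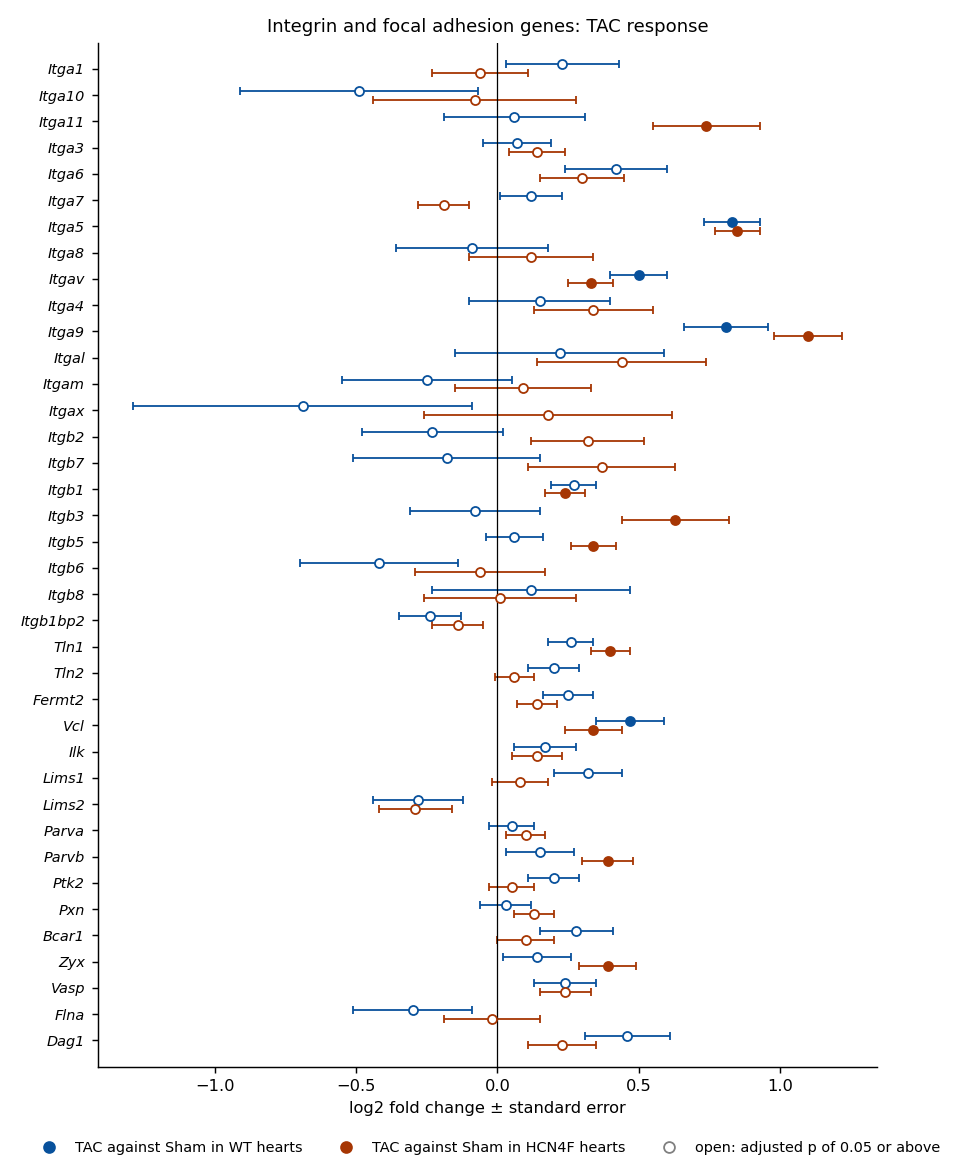
Log2 fold change of TAC against Sham for each of the 38 genes, ordered by role, in WT and in HCN4F hearts (horizontal axis); whiskers are standard errors of the edgeR fit and filled points mark an adjusted p under 0.05. Itga5, Itga9, Itgav and Vcl are filled in both genotypes, and no gene is filled below 0.

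Itga5 (chr15:103344286-103366763), the alpha subunit of the classical fibronectin receptor, had the smallest adjusted p of the 38 in both genotypes. It stood at 43.8, 43.2, 48.4 and 47 CPM in WT-Sham and at 78.7 and 83.6 CPM in WT-TAC. In HCN4F it stood at 59.2, 49.4, 47.5 and 54 CPM after Sham and at 108, 85.6, 92.1 and 93.5 CPM after TAC. Every TAC library lay above every Sham library in both genotypes. The log2 fold change was 0.83 in WT (SE 0.10, adjusted p = 0.00107 in edgeR's quasi-likelihood test) and 0.85 in HCN4F (SE 0.08, adjusted p = 1.94e-05), that is 1.78-fold and 1.8-fold. The interaction, the difference between these responses, was 0.02 (SE 0.13, adjusted p = 0.977).

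Itga9 (chr9:118606690-118901003) encodes the alpha9 subunit, which pairs with beta1 and binds tenascin-C and other ligands. Its levels were 57, 71.4, 74.5 and 58.2 CPM in WT-Sham and 109 and 119 CPM in WT-TAC. They were 73.4, 55.2, 60.2 and 54.8 CPM in HCN4F-Sham and 117, 149, 110 and 148 CPM in HCN4F-TAC. No Sham library reached a TAC library. Itga9 rose by a log2 fold change of 0.81 in WT (SE 0.15, adjusted p = 0.0104) and of 1.10 in HCN4F (SE 0.12, adjusted p = 5.86e-05), 2.15-fold in the latter. Its WT call was lost without WT-TAC replicate 3, at an adjusted p of 0.181. Its close relative Itga4, carried mostly by leukocytes, ran at 1.44 to 3.25 CPM and did not pass (log2 fold change 0.15 in WT and 0.34 in HCN4F).

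Itgav (chr2:83724397-83806916), the alphaV subunit, pairs with beta1, beta3, beta5, beta6 and beta8 and can activate latent TGF-beta. It stood at 16.6, 18.6, 18.4 and 15 CPM in WT-Sham, 24.5 and 24 CPM in WT-TAC, 20.9, 19.4, 21.9 and 20.6 CPM in HCN4F-Sham and 27.7, 25, 23.2 and 27.9 CPM in HCN4F-TAC. TAC libraries lay above Sham libraries of the same genotype without overlap. The rise was 0.50 on the log2 scale in WT (SE 0.10, adjusted p = 0.0140) and 0.33 in HCN4F (SE 0.08, adjusted p = 0.0149). Leaving out either WT-TAC library ended the WT call (adjusted p up to 0.181), and leaving out HCN4F-TAC replicate 4 ended that in HCN4F (0.0521). The third RGD-binding subunit, Itga8, which is known from smooth muscle and other mesenchymal cells, did not pass, at 3.35 to 7.62 CPM and with fold changes of -0.09 and 0.12.

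Of the collagen-binding subunits only Itga11 (chr9:62677826-62783982), a receptor of fibroblasts, passed the test, and only in HCN4F. Its levels were 2.4, 2.54, 3.17 and 3.46 CPM in WT-Sham and 3.16 and 2.89 CPM in WT-TAC. They were 2.86, 4.79, 4.63 and 3.38 CPM in HCN4F-Sham and 6.43, 8.76, 4.73 and 6.14 CPM in HCN4F-TAC. The HCN4F-TAC library with the least, replicate 3, overlapped HCN4F-Sham. The log2 fold change was 0.74 in HCN4F (SE 0.19, adjusted p = 0.0165) and 0.06 in WT (SE 0.25, adjusted p = 0.924). The HCN4F call was lost when HCN4F-Sham replicate 4 or HCN4F-TAC replicate 2 was left out, with adjusted p-values up to 0.0764. Itga1 (35.7 to 45.7 CPM in WT and 26.8 to 53.8 CPM in HCN4F) and Itga10 (0.217 to 1.18 CPM), the other members of this class, did not pass.

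In HCN4F the sum of the activated fibroblast markers was higher after TAC, as Itga11 was. The sum was highest in HCN4F-TAC replicate 2, at 341 CPM, where Itga11 was 8.76 CPM, and lowest of that group in replicate 3, at 86.2 CPM, where Itga11 was 4.73 CPM. Replicates 1 and 4 lay between, at 205 and 240 CPM, where Itga11 was 6.43 and 6.14 CPM. In WT the sum was also higher after TAC without overlap, while Itga11 averaged 2.89 CPM after Sham and 3.03 CPM after TAC. Of the 6 markers, 5 passed as higher after TAC in HCN4F and 0 in WT, where 0 also had an unadjusted p under 0.05 and 2 passed with edgeR on the compared groups. Cthrc1, 1 of the 6, was at 0 in WT-Sham replicate 2 and HCN4F-Sham replicate 1. The part of these cells in the Itga11 result was not tested.

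None of the laminin-binding subunits passed in edgeR on all groups. Itga7 (chr10:128933818-128958282), the main alpha subunit of the cardiomyocyte, stood at 178, 170, 185 and 160 CPM in WT-Sham and 196 and 179 CPM in WT-TAC. It stood at 222, 174, 180 and 170 CPM in HCN4F-Sham and at 156, 154, 186 and 159 CPM in HCN4F-TAC. The groups overlapped in both genotypes, with log2 fold changes of 0.12 (SE 0.11, adjusted p = 0.564) and -0.19 (SE 0.09, adjusted p = 0.182). Itga6, also found on endothelium, was at 62.5 to 73.5 CPM in WT-Sham and at 83.5 and 102 CPM in WT-TAC without overlap, but did not pass (0.42, SE 0.18, adjusted p = 0.188). It passed in 3 of 22 alternatives, edgeR and DESeq2 on the compared groups and leaving out HCN4F-Sham replicate 1, with an adjusted p down to 0.00118. Itga3 ran at 10.3 to 14.5 CPM with fold changes of 0.07 and 0.14.

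Itgb1 (chr8:128685654-128733200), the common partner of most alpha subunits above, was at 296, 315, 325 and 297 CPM in WT-Sham and 364 and 378 CPM in WT-TAC. It was at 330, 311, 352 and 349 CPM in HCN4F-Sham and 415, 409, 374 and 390 CPM in HCN4F-TAC. The groups did not overlap in either genotype. The change was small, 0.27 in WT (SE 0.08, adjusted p = 0.0658) and 0.24 in HCN4F (SE 0.07, adjusted p = 0.0216), and only the latter passed in edgeR on all groups. In WT it passed in 4 of 22 alternatives, both DESeq2 fits, edgeR on the compared groups and leaving out HCN4F-Sham replicate 2, with an adjusted p down to 0.0062. In HCN4F the call was lost in 4 of 22 alternatives, which were edgeR on the compared groups and leaving out HCN4F-TAC replicate 1 or 2 or HCN4F-Sham replicate 2, with adjusted p-values up to 0.0964.

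Itgb5 (chr16:33829665-33949338), a partner of alphaV, stood at 106, 114, 110 and 112 CPM in WT-Sham and at 120 and 112 CPM in WT-TAC, which overlapped. In HCN4F it stood at 110, 112, 117 and 111 CPM after Sham and at 128, 169, 126 and 145 CPM after TAC, which did not. The log2 fold change was 0.06 in WT (SE 0.10, adjusted p = 0.750) and 0.34 in HCN4F (SE 0.08, adjusted p = 0.0121), and the interaction was 0.27 (SE 0.13, adjusted p = 0.539). The HCN4F call was lost with edgeR on the compared groups (adjusted p = 0.0583). Itgb3 (chr11:104608000-104670476), the other well known partner of alphaV and the beta subunit of the platelet fibrinogen receptor, was far lower, at 2.6, 3.38, 2.53 and 3.44 CPM in HCN4F-Sham and 3.82, 5.8, 3.36 and 5.49 CPM in HCN4F-TAC. Its change of 0.63 passed in HCN4F (SE 0.19, adjusted p = 0.0379) although replicate 3 overlapped Sham, and the call was lost in 6 of 22 alternatives, with adjusted p-values up to 0.145: edgeR on the compared groups, and leaving out HCN4F-TAC replicate 2 or 4, HCN4F-Sham replicate 1 or 3, or WT-Sham replicate 2. In WT Itgb3 stood at 3.33 to 4.51 CPM after Sham and at 4.44 and 2.98 CPM after TAC (-0.08, SE 0.23). The 5 platelet markers summed to 9.62 to 12.2 CPM in HCN4F-Sham and to 10.7, 14.8, 8.69 and 11.3 CPM in HCN4F-TAC. Their sum was highest in HCN4F-TAC replicate 2, where Itgb3 was also highest. In HCN4F-Sham replicate 1 the sum was 12.2 CPM, above HCN4F-TAC replicate 4, with Itgb3 at 2.6 CPM against 5.49 CPM. The part of these cells in the Itgb3 result was not tested. Itgb6 (5.43 to 16.7 CPM) and Itgb8 (0.753 to 2.33 CPM) did not pass.

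The 5 leukocyte subunits, Itgal, Itgam, Itgax, Itgb2 and Itgb7, did not pass in any comparison in edgeR or in DESeq2 on all groups, and none had an unadjusted p under 0.05. In HCN4F-TAC against WT-TAC all 5 lay above 0, from 0.28 for Itgal (SE 0.36) to 1.02 for Itgax (SE 0.59). Itgb2, the beta subunit that Itgal, Itgam and Itgax share, was the most abundant at 4.93 to 7.22 CPM in WT-Sham, 4.11 and 5.52 CPM in WT-TAC, 4.35 to 6.78 CPM in HCN4F-Sham and 6.3, 9.09, 4.49 and 7.85 CPM in HCN4F-TAC. The main identifiers of the remaining 4 ranged from 0.185 to 2.84 CPM. Itgb2 was highest in HCN4F-TAC replicates 2 and 4, which also had the highest sums of the 15 leukocyte markers, 329 and 319 CPM, against 201 to 279 CPM in all other libraries, and the part of these cells in its level was not tested.

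**Figure D3:**
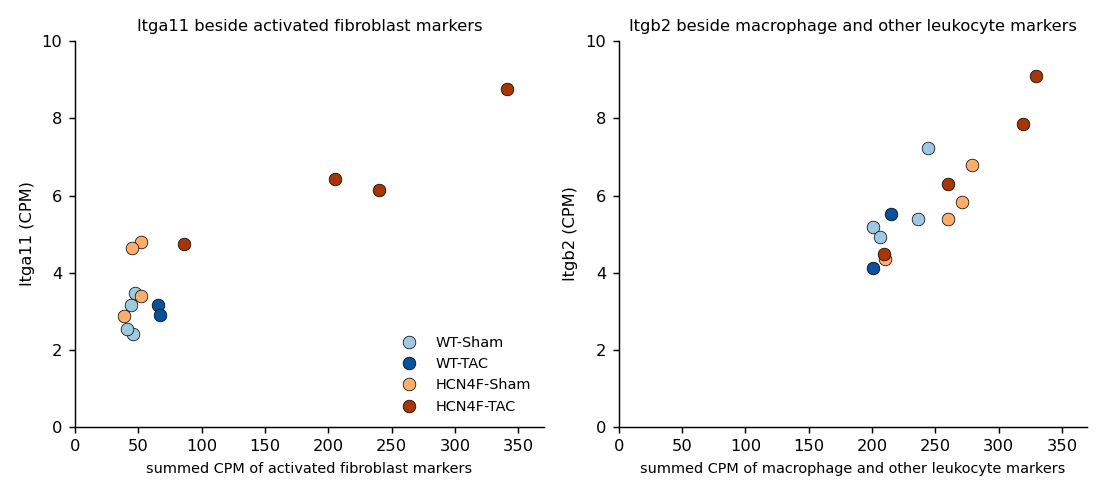
Level of Itga11 (CPM) against the summed CPM of the 6 activated fibroblast markers (left) and of Itgb2 against that of the 15 leukocyte markers (right), with 1 point for each of the 14 libraries, coloured by group. On the left the 4 HCN4F-TAC libraries lie at 86.2 to 341 on the horizontal axis, to the right of every other library, and on the right 2 of them, at 319 and 329, lie farthest to the right.

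**Figure D4:**
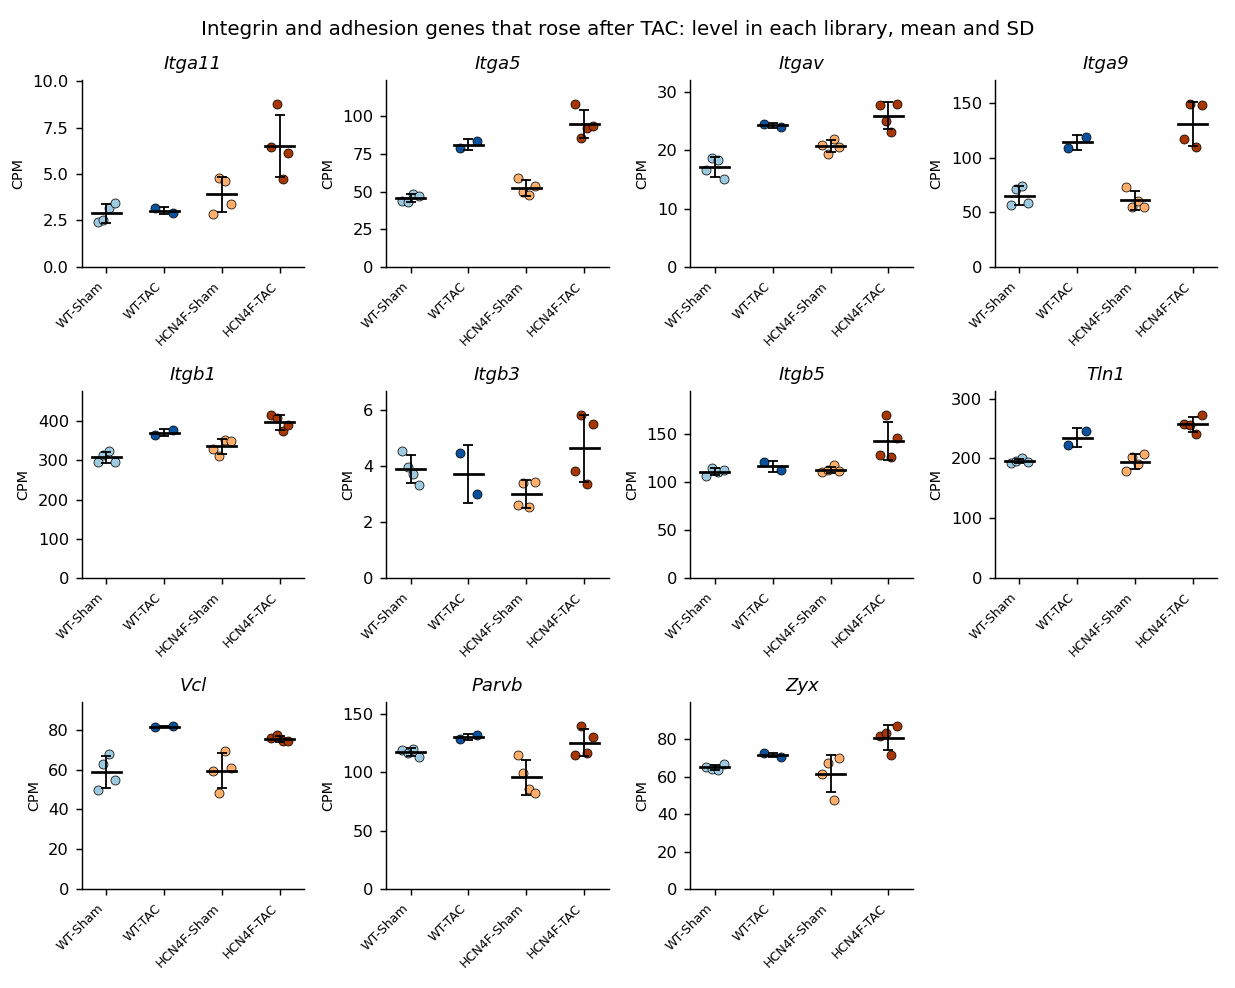
Level in each library (CPM, a panel per gene, each axis starting at 0) of the 11 genes that passed the test after TAC in HCN4F hearts, with horizontal lines at group means and whiskers of 1 SD. For Itga5 and Itga9 every TAC point lies above every Sham point in both genotypes, while for Itga11 and Itgb3 the HCN4F-TAC points overlap HCN4F-Sham.

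Among the proteins that link integrins to actin, talin-1 and vinculin rose and kindlin-2 did not pass in edgeR on all groups. Tln1 (chr4:43531519-43562691) stood at 192, 196, 201 and 194 CPM in WT-Sham, 223 and 246 CPM in WT-TAC, 179, 202, 190 and 207 CPM in HCN4F-Sham and 258, 256, 241 and 272 CPM in HCN4F-TAC. It did not overlap between Sham and TAC in either genotype. It passed in HCN4F (log2 fold change 0.40, SE 0.07, adjusted p = 0.00109) and not in WT (0.26, SE 0.08, adjusted p = 0.0772), where it passed in both DESeq2 fits and in edgeR on the compared groups (adjusted p down to 0.00884). Tln2, the talin isoform of the adult cardiomyocyte costamere, did not pass, with changes of 0.20 in WT and 0.06 in HCN4F at 95.4 to 129 CPM.

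Vcl (chr14:20929398-21033676), which encodes vinculin and its muscle form metavinculin, stood at 49.7, 62.7, 68 and 54.7 CPM in WT-Sham and at 81.5 and 81.6 CPM in WT-TAC. It stood at 59.5, 48.2, 69.4 and 60.7 CPM in HCN4F-Sham and at 76, 77.2, 74.1 and 74.5 CPM in HCN4F-TAC. Both TAC groups were tight and lay above the wider Sham groups. The changes were 0.47 in WT (SE 0.12, adjusted p = 0.0401) and 0.34 in HCN4F (SE 0.10, adjusted p = 0.0348). These calls were near the threshold: the one in WT was lost in 8 of 22 alternatives and the one in HCN4F in 7, with adjusted p-values up to 0.274 and 0.0913. In WT these included leaving out either WT-TAC library or WT-Sham replicate 1, 2 or 4, and in HCN4F leaving out HCN4F-TAC replicate 1, 2 or 4 or HCN4F-Sham replicate 1, 2 or 4. Fermt2, the kindlin of the heart, stood at 139 to 160 CPM in WT-Sham and 172 and 176 CPM in WT-TAC without overlap, with a change of 0.25 in WT (SE 0.09, adjusted p = 0.101) and 0.14 in HCN4F (SE 0.07, adjusted p = 0.230). In WT it passed in both DESeq2 fits and in edgeR on the compared groups, with an adjusted p down to 0.0232.

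In the ILK, PINCH and parvin complex 1 of 5 genes passed in edgeR on all groups, in HCN4F. Parvb (chr15:84232043-84315688), encoding beta-parvin, stood at 119, 116, 120 and 113 CPM in WT-Sham and 128 and 132 CPM in WT-TAC. In HCN4F it stood at 115, 99.2, 85.5 and 82.1 CPM after Sham and at 115, 139, 116 and 130 CPM after TAC. The HCN4F-Sham level lay mostly under that of WT-Sham, and the HCN4F-TAC level overlapped WT-TAC. The lowest HCN4F-TAC library and the highest HCN4F-Sham library were both at 115 CPM, the former just above the latter. Its TAC response was 0.39 in HCN4F (SE 0.09, adjusted p = 0.0119) and 0.15 in WT (SE 0.12, adjusted p = 0.458). The HCN4F call was lost with edgeR on the compared groups (adjusted p = 0.0598). The Sham difference between genotypes was -0.29 (SE 0.09, adjusted p = 0.157). Ilk itself did not pass at 10.2 to 13.9 CPM, nor did Parva, Lims1 or Lims2. Lims1 passed in WT in edgeR and DESeq2 on the compared groups, with an adjusted p down to 0.00427. Lims2 was the lowest of the complex relative to Sham in both genotypes, with changes of -0.28 (SE 0.16) and -0.29 (SE 0.13).

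None of the 3 genes of the signalling scaffold passed. Ptk2, which encodes focal adhesion kinase, was 29.4, 29.3, 29.1 and 27.1 CPM in WT-Sham and 32.5 and 33.7 CPM in WT-TAC, and 28 to 34.9 CPM in all HCN4F libraries. Its changes were 0.20 (SE 0.09, adjusted p = 0.220) and 0.05 (SE 0.08, adjusted p = 0.688). Pxn, encoding paxillin, and Bcar1, encoding p130Cas, had changes of 0.03 and 0.28 in WT and of 0.13 and 0.10 in HCN4F. These are transcript levels and carry no information on phosphorylation.

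Zyx (chr6:42349630-42360213) encodes zyxin, which gathers at actin fibres under strain. It was 65.1, 64.1, 63.5 and 66.7 CPM in WT-Sham, 72.4 and 70.6 CPM in WT-TAC, 61.5, 67.3, 47.7 and 70 CPM in HCN4F-Sham and 81.4, 83.3, 71.5 and 86.7 CPM in HCN4F-TAC. Both TAC groups lay above their Sham groups without overlap. It passed in HCN4F (0.39, SE 0.10, adjusted p = 0.0134) and not in WT (0.14, SE 0.12, adjusted p = 0.513), and the HCN4F call was lost with edgeR on the compared groups (adjusted p = 0.0653). Vasp, an actin elongation factor that binds zyxin, had a change of 0.24 in each genotype, with adjusted p-values of 0.215 and 0.0874. Flna, encoding the actin crosslinker filamin A, stood at 187 to 265 CPM in WT-Sham and 144 to 232 CPM in HCN4F-Sham and did not pass.

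Melusin and dystroglycan complete the costamere set. Itgb1bp2, the muscle-specific partner of the beta1 tail, stood at 131, 115, 125 and 125 CPM in WT-Sham, 100 and 109 CPM in WT-TAC, 114, 113, 93.9 and 94.3 CPM in HCN4F-Sham and 104, 82.9, 91.7 and 97.4 CPM in HCN4F-TAC. It was the only one of the 38 with every WT-TAC library below WT-Sham, but the change of -0.24 did not pass (SE 0.11, adjusted p = 0.192). In HCN4F it was -0.14 (SE 0.09, adjusted p = 0.293). Dag1, encoding the laminin receptor that anchors dystrophin, stood at 326, 399, 411 and 356 CPM in WT-Sham and 541 and 488 CPM in WT-TAC, a change of 0.46 that did not pass (SE 0.15, adjusted p = 0.0777) and that passed in 4 of 22 alternatives, both DESeq2 fits, edgeR on the compared groups and leaving out HCN4F-Sham replicate 2 (adjusted p down to 0.000162). It was 293 to 454 CPM in HCN4F-Sham and 404 to 495 CPM in HCN4F-TAC (0.23, SE 0.12, adjusted p = 0.230). Sums of the ventricular cardiomyocyte markers were 68308 to 71755 CPM in WT-Sham, 62357 and 62393 in WT-TAC, 61100 to 67430 in HCN4F-Sham and 45224 to 57512 in HCN4F-TAC. Of the 8 markers, 2 passed as lower after TAC in WT (1.62% of tested genes) and 4 in HCN4F (6.41%). The part of these cells in the levels above was not tested.

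The genotypes were compared within each surgery to ask whether the HCN4F channel alters adhesion gene expression. After Sham, 0 of the 38 passed in edgeR and 0 in DESeq2 on all groups, where 0.471% of tested genes passed in edgeR. An unadjusted p under 0.05 was reached by 4 of the 38 (15.2% of tested genes): Itga5 and Itgav were higher in HCN4F, by 0.20 (SE 0.08) and 0.27 (SE 0.08), and Itgb1bp2 and Parvb lower, at -0.26 (SE 0.09) and -0.29 (SE 0.09). The largest of the 38 changes was 0.51 on the log2 scale, none reached the fold threshold (0.209% of tested genes), and libraries did not overlap for 2 of the 38, Itgav above and Itgb1bp2 below (8.56% of tested genes). Without HCN4F-Sham replicate 1, which had the lowest Itga1 (26.8 CPM) and the highest Parvb (115 CPM) of its group, 2 genes passed, Itga1 as higher and Parvb as lower. This library also had the lowest endothelial, mural and erythroid marker sums of its group. Its endothelial sum was 791 CPM against 1086 to 1423 CPM, and the part of these cells in the Itga1 result was not tested.

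After TAC, 0 of the 38 passed in edgeR (0.111% of tested genes) and 1 in DESeq2 on all groups, Itga11, which there also passed the fold threshold (0.0719% of tested genes in edgeR). An unadjusted p under 0.05 was reached by 4 of the 38 (12.5% of tested genes): Itga11, Itga5 and Itgb5 were higher in HCN4F-TAC and Lims1 lower. Itga11 had the largest difference, 1.11 on the log2 scale (SE 0.25, 2.16-fold, adjusted p = 0.0986), and its 4 HCN4F-TAC libraries lay above both WT-TAC libraries. Over the alternatives its adjusted p ranged from 0.00502 to 0.506, and it passed in 4 of 22, among them without HCN4F-TAC replicate 3. In the same comparison the activated fibroblast markers had a median of 1.81, with 5 of 6 at an unadjusted p under 0.05, 0 passing in edgeR and 4 in DESeq2 on all groups. Of the 8 fibroblast markers 0 passed in edgeR and 4 in DESeq2 on all groups, and the part of these cells in the Itga11 difference was not tested. Of the 38 genes Itga11 also lies nearest to the targeted gene Hcn4 (chr9:58823412-58863175), on the same chromosome. Whether DNA linked to the knock-in had a part in the difference was not tested. The TAC groups did not overlap for 6 of the 38, with HCN4F above in 5 (Itga11, Itga5, Itgam, Itgb5 and Itgb8) and below in 1 (Vcl), and for 22.2% of tested genes. For Itgb8 the nearest libraries of the groups were both at 1.2 CPM, and for Itgam they were at 1.8 and 1.69 CPM.

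The test of the difference between the TAC responses passed for 0 of the 38 in edgeR and in DESeq2 on all groups, and for 0 of the tested genes in edgeR. An unadjusted p under 0.05 was reached by 3 of the 38 (9.27% of tested genes): Itga11 at 0.69 (SE 0.32) and Itgb3 at 0.71 (SE 0.30), toward a larger rise in HCN4F, and Itga7 at -0.31 (SE 0.14).

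**Figure D5:**
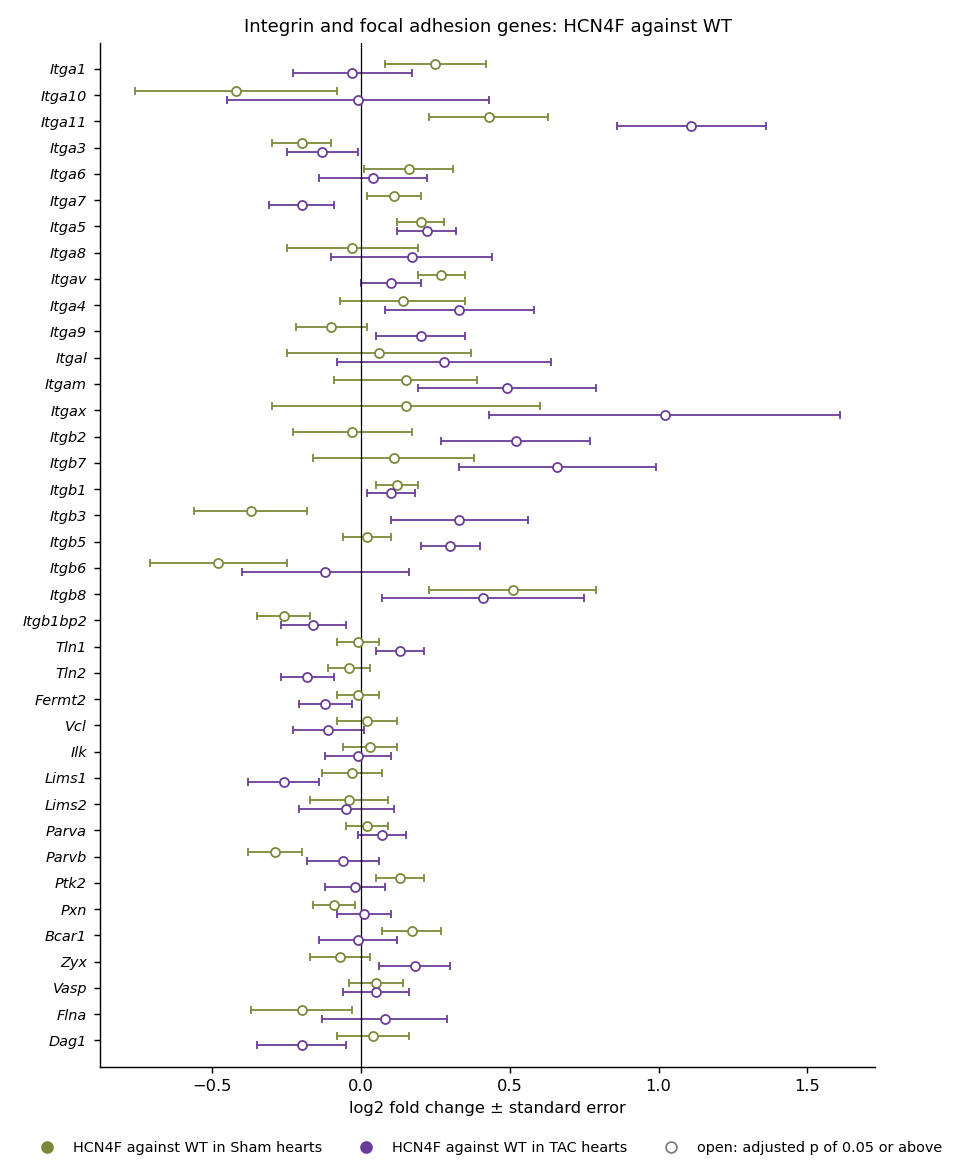
Log2 difference of HCN4F against WT for each of the 38 genes after Sham and after TAC (horizontal axis), with whiskers for standard errors of the edgeR fit; no point is filled, since no adjusted p was under 0.05. Itga11 after TAC lies farthest to the right at 1.11.

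The rest of the adhesion machinery was counted from lists of other genes. Of 20 further focal adhesion adaptors, 4 passed as higher in WT (2.92% of tested genes) and 5 in HCN4F (7.20%), with 0 lower in both. Their medians were -0.01 and 0.14. Without WT-TAC replicate 3 the WT count was 0. In HCN4F it was 3 without HCN4F-Sham replicate 3, HCN4F-TAC replicate 1 or HCN4F-TAC replicate 4, where Tns3 and Actn1 were lost. Flnc, encoding the muscle filamin, averaged 518 CPM in WT-Sham and 1050 CPM in WT-TAC (log2 fold change 1.02, SE 0.12, adjusted p = 0.00107), and 575 and 1173 CPM in HCN4F (1.03, SE 0.11, adjusted p = 2.57e-05). Sorbs2 rose by 0.95 and 1.02, and Enah, an actin elongation factor related to Vasp, by 1.14 and 1.49.

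Of 26 adhesion signalling genes, 1 passed as higher in WT (2.92% of tested genes), the adaptor Crk (0.37, SE 0.10, adjusted p = 0.0449 in edgeR). In HCN4F 7 passed, all higher (7.20% of tested genes), and the medians were 0.13 and 0.18. DESeq2 on all groups gave 4 in WT (Crk, Crkl, Rock2 and Arhgef7) and 9 in HCN4F, and edgeR on the compared groups 5 and 4. In WT the count was 0 to 4 with 1 library left out, 0 without either WT-TAC library, and in HCN4F it was 3 without HCN4F-TAC replicate 2. The 3 with the smallest adjusted p in HCN4F were Ptk2b, the kinase most like focal adhesion kinase (0.89, SE 0.16, adjusted p = 0.00159), Arhgef7 (0.37, adjusted p = 0.00196) and Fyn (0.29, adjusted p = 0.0133). Of 24 integrin ligands 4 passed as higher (2.92% of tested genes) and 1 as lower (1.62%) in WT. In HCN4F 14 passed as higher (7.20% of tested genes), and the medians were 0.23 and 0.30. Postn and Col1a1 were counted here and also among the activated fibroblast and fibroblast markers, of which 5 of 6 and 3 of 8 passed as higher in HCN4F. The part of these cells in the ligand levels was not tested. In WT 0 ligands passed without either WT-TAC library and 13 as higher with edgeR on the compared groups, and in HCN4F 10 passed without HCN4F-TAC replicate 2. In WT the 3 with the smallest adjusted p were laminin chains, Lama2 at 0.45, Lamb1 at 0.44 and Lamc1 at 0.47. The other that rose in WT was Thbs1, the thrombospondin-1 gene, with the largest change of the 4 (1.82, SE 0.39, adjusted p = 0.0296, 12.8 CPM against 45.4 CPM), and it rose by 2.53 in HCN4F (SE 0.34, adjusted p = 0.000815). The ligand that fell in WT was Vcam1 (-0.54, SE 0.14, adjusted p = 0.0408). Thbs1 and Vcam1 are named after their values were seen. In HCN4F the 3 with the smallest adjusted p were Col4a1 at 0.74, Fbn1 at 0.99 and Tnc, the tenascin-C gene, at 1.63 (SE 0.24, adjusted p = 0.000465, 1.98 CPM against 6.09 CPM). None of these lists had a gene that passed between the genotypes in either surgery group in edgeR, where DESeq2 on all groups gave Fyn as lower after Sham and 8 ligands as higher after TAC. An unadjusted p under 0.05 in edgeR was reached after Sham by 1 of the adaptors, 6 of the signalling genes and 3 of the ligands (15.2% of tested genes). After TAC it was reached by 3, 5 and 11 (12.5% of tested genes).

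Some of the 38 share their place in the genome with another counted gene, and neither the counting rule nor the use of strand is given in the sources used here. Ilk overlaps Taf10 and Rrp8 on the opposite strand, and over the 14 libraries 4920 reads were counted on Ilk and 12540 on Taf10. Tln1 overlaps Creb3, and Vcl overlaps Ap3m1, also on the opposite strand. Itga1 shares its strand with Pelo, which lies within it, and the 2 Itgam identifiers overlap each other.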

How the data were processed

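Polyadenylated RNA from LV tissue was sequenced on an Illumina platform. The authors deposited raw counts, whole numbers of reads per gene and sample. The submitters' processing notes name the genome build GRCm38. The aligner, the counting program and the use of strand are not given in the sources used here. Libraries were assigned to groups and replicate numbers from their labels. The table holds 2 further columns of per-sample values, which were not used, and the other WT-TAC samples of the 16 described were not analysed here.

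Low counts were filtered with filterByExpr, using the groups, and 15292 genes remained. Library sizes were normalized by TMM (edgeR 4.0.16, R 4.3.3). Levels are CPM after TMM, with no pseudocount added. All 14 libraries entered 1 model with a mean for each group, fitted with robust quasi-likelihood, and 4 comparisons and the genotype by surgery interaction were tested, with p-values adjusted by Benjamini-Hochberg across the tested genes. SE is that of the log2 fold change. Fold calls add a log2 fold change above 1 or below -1. P-values set a difference against the spread between libraries within groups, of which each gene had 1 estimate shared by all 4 groups. Those for WT thus also rest on the spread in the HCN4F groups. Where a WT-TAC library was left out, the 1 that remained added nothing to this estimate. CPM per kilobase used the union of exons in GENCODE mouse release 21 (GRCm38), in which 99.3% of identifiers were found. Promoters came from RefSeq (GRCm38.p6). Same-numbered libraries of different groups did not deviate together: of 18 pairs, 2 had a correlation over 0.1 (median -0.002). The numbers were therefore not treated as pairs. No 2 libraries of a group agreed within counting error.

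The text names all 38 genes, Hcn4, and from each further pathway list and comparison the 3 genes with the smallest adjusted p under 0.05 and a mean CPM of at least 1. Marker lists are given as sums, counts of passing genes or single values beside a result. The members, the lists and the tests were chosen with earlier results of these data known. Beside those in the report, the lists were endothelial (8 genes), mural (7), fibroblast (8) and erythroid (5) markers, the dystrophin complex (19) and other integrin subunits and kindlins (7). The model was tested on simulated data with changes larger than any found for the 38 genes, so smaller changes were not covered. In all, 22 alternatives were run. DESeq2 1.42.0 was fitted with all 4 groups or with the pair compared, and edgeR with that pair. Size factors from DESeq2 replaced TMM, the filter was dropped or set to a mean of 1 CPM, dispersions were estimated without robustness, the replicate number was entered as a block, and each library was left out once. The counts of the further lists under left-out libraries were added after the data were seen. The authors' qPCR and other measurements were not analysed here. Plots were made in Python 3.11.15 (matplotlib 3.10.9).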

Additional observations from a re-analysis of the deposited data

Results flagged for a closer look

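In groups of 4 libraries, a level was singled out where 1 library stood far from the other 3 by Dixon's ratio. This was so for 5 of 114 groups (4.39%), and chance gives about 1 in 20. Itga7 was 186 CPM in HCN4F-TAC replicate 3, where the other 3 libraries had 154 to 159 CPM. In the same library Fermt2 was 173 CPM against 154 to 157 CPM. Itgam was 2.84 CPM in WT-Sham replicate 4 against 1.45 to 1.63 CPM. Ilk was 10.2 CPM in WT-Sham replicate 3 against 12.5 to 12.6 CPM. Ptk2 was 27.1 CPM in WT-Sham replicate 4 against 29.1 to 29.4 CPM. None of these genes passed the test in any of the 4 comparisons in edgeR on all groups, and Fermt2 passed after TAC in WT in 3 alternatives. The interaction had no adjusted p under 0.05 for any of the 38 genes, in edgeR or in DESeq2 on all groups.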

How the results depend on the processing

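Itga5 in both genotypes, and Itga9 and Tln1 in HCN4F, passed after TAC in all 22 alternatives, and no passing gene changed sign. The count of genes passing after TAC in WT (4) was 8 with DESeq2 on all groups, 10 with DESeq2 on the compared groups and 10 with edgeR on the compared groups. It was at most 6 when 1 library was left out, and lowest when WT-TAC replicate 3 was, which leaves 1 library in that group. In HCN4F (11) it was 5 with edgeR on the compared groups and 7 to 11 with 1 library left out, lowest without HCN4F-TAC replicate 2, where Itga11, Itgb1, Itgb3 and Vcl were lost. Between the genotypes the count was 0 to 2 with 1 library left out after Sham. After TAC it was 0 to 1, and it was 1, Itga11, with DESeq2 on all groups, with DESeq2 on the compared groups and without a filter, with and without the fold threshold. The interaction gave 0 with each library left out. With the replicate number as a block, 3 genes passed after TAC in WT (Vcl was lost) and 11 in HCN4F. The median change over the 38 genes after TAC in HCN4F was 0.23, against 0.16, without HCN4F-Sham replicate 2. The causes of these shifts were not tested. The 2 WT-TAC libraries limit the WT response and both contrasts that use it, and the rarest of the 38 rest on few reads, 5 to 32 per library for Itgax.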

Other observations

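The dystrophin complex anchors actin to dystroglycan beside the integrins. Of its 19 genes, 2 passed as higher after TAC in WT (2.92% of tested genes) and 1 in HCN4F (7.20%). In edgeR 0 passed as lower, and the medians were 0.15 and 0.09. In WT the count was 0 without WT-TAC replicate 3, 1 without WT-TAC replicate 2 and 6 with edgeR on the compared groups. Sgcd, encoding delta-sarcoglycan, stood at 12.8, 13.3, 13.3 and 11.5 CPM in WT-Sham and at 21.9 and 22.4 CPM in WT-TAC. It rose by a log2 fold change of 0.80 in WT (SE 0.13, adjusted p = 0.00358), and its change in HCN4F was 0.10 (SE 0.11, adjusted p = 0.581), from 13.6 to 19.8 CPM after Sham to 15.4 to 18.9 CPM after TAC. The interaction was -0.70 (SE 0.16, unadjusted p = 0.00052, adjusted p = 0.315 in edgeR) and did not pass there, while it passed in DESeq2 on all groups. Dmd, the dystrophin gene, rose by 0.64 in WT (SE 0.15, adjusted p = 0.0290), where its change in HCN4F was 0.32 (SE 0.13, adjusted p = 0.105). Sntb1, encoding a syntrophin, rose by 0.70 in HCN4F (SE 0.18, adjusted p = 0.0155), with 0.68 in WT (SE 0.22, adjusted p = 0.0848).

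Of 7 other integrin subunits and kindlins, 6 were tested and 0 passed in edgeR or in DESeq2 on all groups, with an unadjusted p under 0.05 for 1 after TAC in HCN4F and 0 in WT. Over all libraries the summed endothelial markers ran from 791 to 1423 CPM and the mural ones from 680 to 1053 CPM, and 0 of the 8 and 0 of the 7 passed in edgeR after TAC in either genotype, with an unadjusted p under 0.05 for 4 of the mural genes in WT, of which DESeq2 on all groups passed 1. The fibroblast markers summed to 1428 to 2220 CPM, with 3 of 8 higher in HCN4F and 1 of 8, Dpt, lower in WT, which was lost without either WT-TAC library. The erythroid ones summed to 70.9 to 365 CPM with 0 of 5 passing or reaching an unadjusted p under 0.05.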
